A study of Homo sapiens with 12 samples.

Results

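The DNA mismatch repair genes examined were MSH6, MSH3, PMS2, PMS1 and MLH3. They were taken as the transcripts that carry one of these gene names and that either match an Ensembl transcript intron for intron or share at least a junction with one. This rule found 5 genes of 56537 gene names, and 93 transcripts of 286562. Of the 93 transcripts, 58 matched a reference transcript, 35 were other splice forms of a known gene and 14 were at 0 in all libraries. All 5 genes passed the filter on low values and were among the 16680 genes tested.

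The cells were HCT116, an established human colorectal carcinoma line. Every group was this one line in the same medium, and the groups differed in oxygen: 21% oxygen (0 h) or 1% oxygen for 1, 2 or 24 h. There were 3 biological replicates at each of the 4 time points, 12 libraries in all, from poly(A) RNA sequenced with strand information. The time course began 24 h after the cells were plated. Whether cells of 0 h were collected at its start or at its end is not stated, so time in culture and time in 1% oxygen cannot be told apart at 24 h.

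Expression is given as FPKM, fragments scaled to transcript length and to the mapped fragments of the library, summed over the transcripts of a gene. The files give no fragment counts beside these values, and the spread between the 3 libraries is the measure of precision. Over genes, libraries of the same time point correlated with Pearson's r of 0.965 to 0.988, and a 0 h with a 24 h library with 0.905 to 0.935, on log2 values. KRT8, KRT18 and KRT19, keratins of simple epithelia, were at 435 to 1191 FPKM and CDH1 at 6.06 to 27.4 FPKM, whereas CEACAM5, also an epithelial marker, was at most 0.0185 FPKM. Of 5 markers of other cell types, PTPRC, PECAM1, COL1A2 and ALB were at most 0.23 FPKM in any library. The fifth, COL1A1, brought the sum of that list to 1.82 to 2.16 FPKM at 0 h and 5.86 to 8.79 FPKM at 24 h. Its part in the results at 24 h was not tested.

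Mismatch repair removes base mismatches and small loops left by replication. A MutS dimer recognises the error, a MutL dimer is recruited to it, and the new strand is cut back and resynthesised with the help of the sliding clamp. MSH6 gives a MutS dimer for single mismatches and small loops and MSH3 one for larger loops, while PMS2 supplies the nuclease of the main MutL dimer and PMS1 and MLH3 form the alternative MutL dimers. HCT116 is known as a mismatch repair-deficient line with unstable microsatellites, and what was measured here was transcript, not protein or repair activity.

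The promoters of the members that fell at 24 h are shown so that the letters around their starts can be compared. Each is the RefSeq sequence (GRCh38.p14) from 250 bases before to 50 bases after the gene's most upstream start in the promoter table, on the gene's strand. Capitals mark CCAAT boxes (CCAAT) and E2F-type matches (TTTCCCGC, TTTGGCGC or TTTCGCGC) on either strand. MSH6 lies at chr2:47782895-47783194 (plus strand), PMS2 at chr7:6009057-6009356 (minus strand) and PMS1 at chr2:189784200-189784499 (plus strand).
MSH6: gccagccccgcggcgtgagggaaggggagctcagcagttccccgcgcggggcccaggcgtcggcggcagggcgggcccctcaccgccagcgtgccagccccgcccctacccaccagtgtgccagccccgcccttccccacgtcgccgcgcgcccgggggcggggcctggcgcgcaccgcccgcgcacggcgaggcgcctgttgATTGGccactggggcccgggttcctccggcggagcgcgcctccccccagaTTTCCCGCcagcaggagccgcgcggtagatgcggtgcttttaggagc
PMS2: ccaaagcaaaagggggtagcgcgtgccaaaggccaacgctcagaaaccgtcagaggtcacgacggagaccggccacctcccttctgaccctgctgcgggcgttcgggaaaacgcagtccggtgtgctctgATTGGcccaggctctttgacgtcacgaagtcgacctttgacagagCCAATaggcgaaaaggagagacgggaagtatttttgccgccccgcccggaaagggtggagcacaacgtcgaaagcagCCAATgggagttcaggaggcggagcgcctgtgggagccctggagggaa
PMS1: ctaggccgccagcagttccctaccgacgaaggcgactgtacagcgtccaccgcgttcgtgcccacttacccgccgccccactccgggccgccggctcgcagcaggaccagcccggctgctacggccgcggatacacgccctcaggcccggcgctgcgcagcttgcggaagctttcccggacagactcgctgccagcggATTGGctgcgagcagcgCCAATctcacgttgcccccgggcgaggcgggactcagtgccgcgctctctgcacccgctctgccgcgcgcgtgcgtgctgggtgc
The MSH6 promoter held 1 E2F-type match, which began at base 4 with the start counted as base 1, and 1 CCAAT box. PMS2 held 3 CCAAT boxes and PMS1 held 2, with no E2F-type match in either. In MSH3 there were 2 overlapping E2F-type matches and no CCAAT box, and MLH3 held neither. Of 27305 promoters of this length, 2.79% held an E2F-type match and 35.7% a CCAAT box. The core of the hypoxia response element (ACGTG or GCGTG) was present in all 5 members and in 48.4% of the promoters. A match describes the letters of this window and does not show that a factor binds there.

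At 24 h, 3 of the 5 genes were lower than at 0 h: MSH6, PMS2 and PMS1. MSH3 and MLH3 did not pass the test. The question addressed is whether the genes of mismatch repair changed with time in low oxygen. Changes were tested with limma on log2(FPKM + 0.5), with Benjamini-Hochberg adjustment over all 16680 genes, and a gene was taken as changed at an adjusted p under 0.05. On that scale the change of low genes is understated. By this rule 30.3% of all genes tested were lower and 25.0% higher at 24 h. The median log2 fold change was -0.64 over the members and -0.05 over all genes. All 24 h libraries lay below all 0 h libraries for 4 members, MSH6, PMS2, PMS1 and MSH3, an arrangement found in 32.8% of all genes tested. With the stricter rule of the study's own gene test, an adjusted p under 0.01 with a more than 2-fold difference, only MSH6 was called, and 9.51% of all genes were called lower. In bulk RNA, fewer cells with a transcript and less of it per cell cannot be told apart.

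MSH6, on chromosome 2 (47922669 to 48037202, plus strand, GRCh37, as are all gene positions given here), was the most abundant member. It stood at 62.4, 65.6 and 69.2 FPKM at 0 h. The libraries held 68.6, 74.8 and 67.1 FPKM at 1 h and 61.4, 66.1 and 69.2 FPKM at 2 h. At 24 h it was at 31.3, 29.5 and 33.0 FPKM. The 9 libraries up to 2 h overlapped one another, and the 3 at 24 h lay far below them and close together. The log2 fold change from 0 h was -1.06 (SE 0.09, adjusted p = 1.7e-06), and from 2 h it was -1.05 (adjusted p = 2.4e-06).

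MSH3, the MutS homologue for larger loops (chromosome 5, 79950471 to 80172634, plus strand), was the least abundant member. Its level at 0 h was 1.29, 1.10 and 1.14 FPKM. It was 1.46, 1.53 and 1.09 FPKM at 1 h, then 1.33, 1.65 and 1.60 FPKM at 2 h. At 24 h the libraries held 0.430, 0.916 and 1.05 FPKM. The groups at 0 h and 24 h did not overlap, but replicate 1 at 24 h was less abundant than the other two and near the filter limit of 0.5 FPKM. The log2 fold change from 0 h was -0.40 (SE 0.20, adjusted p = 0.11), which did not pass, and it was -0.18 without replicate 1 at 24 h (adjusted p = 0.42). It was -0.08 (adjusted p = 0.77) when only transcripts above 0.5 FPKM in 3 libraries were summed, and -0.19 (adjusted p = 0.49) with only those that match a reference transcript. In the other direction, it was -0.54 without replicate 3 at 24 h (adjusted p = 0.05). With values scaled to TPM over all transcripts it was -0.66, which passed (adjusted p = 0.038). From 2 h to 24 h it fell, with a log2 fold change of -0.67 (adjusted p = 0.015; by this rule 27.4% of all genes tested were lower), but without replicate 1 at 24 h the value was -0.45 (adjusted p = 0.053).

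PMS2, the MutL homologue with the nuclease that nicks the new strand (chromosome 7, 6010556 to 6048761, minus strand), stood at 12.1, 12.8 and 12.7 FPKM at 0 h. It was at 12.4, 13.5 and 12.5 FPKM at 1 h and at 10.5, 10.3 and 12.2 FPKM at 2 h. The 24 h libraries gave 4.28, 5.80 and 9.24 FPKM. All 3 were below every earlier library, though they spread more widely among themselves than at any other time. The log2 fold change from 0 h was -0.97 (SE 0.20, adjusted p = 0.0013), and it was -0.74 without replicate 1 and -1.25 without replicate 3 at 24 h. From 2 h it was -0.79 (adjusted p = 0.0055).

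PMS1, a MutL homologue whose dimer has a minor part in repair (chromosome 2, 190648811 to 190742355, plus strand), stood at 16.9, 15.4 and 16.9 FPKM at 0 h. It reached 20.2, 18.5 and 19.2 FPKM at 1 h and 20.5, 17.9 and 20.2 FPKM at 2 h. At 24 h it was at 9.21, 10.3 and 11.6 FPKM. The 6 libraries at 1 h and 2 h all lay above those at 0 h, but neither early difference passed the test. The share of all genes with this early arrangement was not counted. The 24 h libraries all lay below those at 0 h. The drop from 0 h to 24 h had a log2 fold change of -0.64 (SE 0.10, adjusted p = 0.00027), and from 2 h it was -0.88 (adjusted p = 2.9e-05).

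MLH3, the MutL homologue best known from meiotic recombination (chromosome 14, 75480472 to 75518235, minus strand), stood at 5.20, 5.29 and 4.43 FPKM at 0 h. It was at 4.99, 3.85 and 4.32 FPKM at 1 h and at 3.96, 6.10 and 3.57 FPKM at 2 h. At 24 h the libraries held 4.76, 7.10 and 6.97 FPKM. These values overlapped those of every earlier time point. The log2 fold change at 24 h was 0.29 from 0 h (SE 0.20, adjusted p = 0.24) and 0.44 from 2 h (adjusted p = 0.085), neither of which passed. The first was 0.46 without replicate 1 at 24 h (adjusted p = 0.068), and it turned to -0.45 when values were scaled to TPM over all transcripts.

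**Figure D1:**
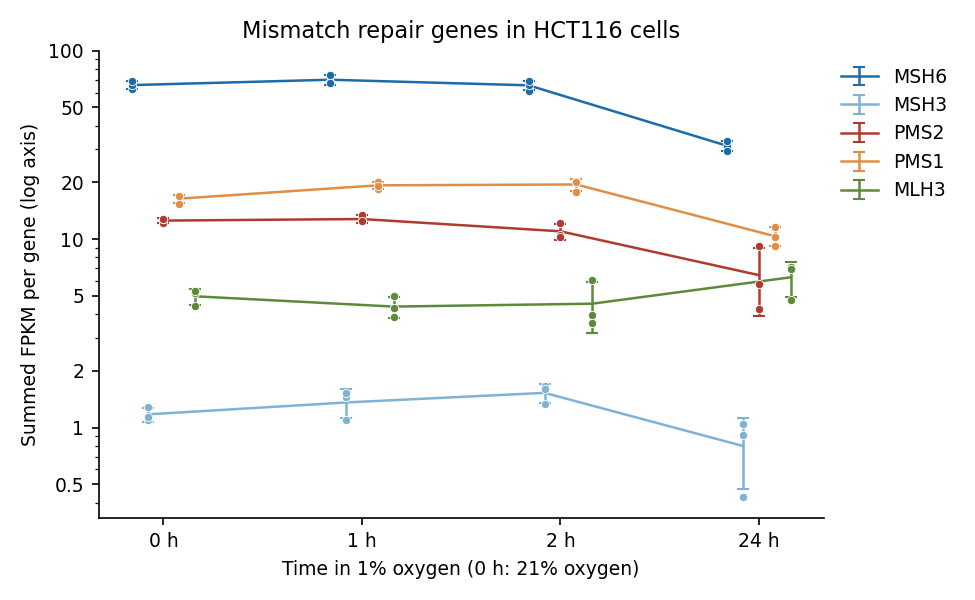
Summed FPKM of MSH6, MSH3, PMS2, PMS1 and MLH3 (log axis) at 0, 1, 2 and 24 h in HCT116 cells, with time points evenly spaced. Points are libraries, lines join the means and bars are the SD of 3 libraries; MSH6 fell from 65.7 to 31.3 FPKM on average, and PMS2 met MLH3 at 24 h.

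No member passed the test at 1 h or 2 h against 0 h. At 1 h, 0.00600% of all genes tested were higher and none lower by limma at an adjusted p under 0.05, with 4.61% at an unadjusted p under 0.05. At 2 h the shares were 0.216% higher and 0.0959% lower, with 15.3% at an unadjusted p under 0.05. PMS1 had the largest early difference relative to its error among the members. Its log2 fold change was 0.23 at 1 h (SE 0.10, unadjusted p = 0.05, adjusted p = 1) and 0.24 at 2 h (SE 0.10, unadjusted p = 0.04, adjusted p = 0.31). Same-numbered libraries of 0 h and 2 h deviated together from their group means, with correlations across genes of 0.129 to 0.362 in the 3 pairs. With the replicate number as a block, 275 genes were changed at 2 h against 52 without it. No member was among the 275, with PMS1 at an adjusted p of 0.19.

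The order of the levels at 0 h was MSH6, PMS1, PMS2, MLH3 and MSH3, and no neighbours in that order overlapped at 0, 1 or 2 h. At 0 h MSH6 was more abundant than 88.7% of the genes tested, PMS1 than 64.6%, PMS2 than 58.7%, MLH3 than 39.2% and MSH3 than 16.9%. At 24 h the libraries of PMS1 overlapped those of PMS2, and those of PMS2 overlapped those of MLH3. FPKM is a level per length, which is what allows genes to be ranked this way.

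Ratios within a library do not depend on the scaling between libraries. The median ratio of PMS2 to MLH3 was 2.42 before hypoxia, 2.89 and 2.66 after 1 and 2 h, and 0.900 after 24 h. On the log2 scale this ratio changed by -1.35 from 0 h to 24 h, and every 24 h library was below every 0 h library (two-sided exact permutation p = 0.1, the smallest that 3 libraries against 3 can give). The median ratio of PMS1 to MLH3 went from 3.25 to 1.66, a log2 difference of -0.98 (exact permutation p = 0.1). The ratio of MSH6 to MSH3 had a log2 difference of -0.42 (exact permutation p = 0.4), and the ratio of PMS2 to PMS1 one of -0.37 (exact permutation p = 0.3). Adjusted over these 4 ratios, the smallest p was 0.2. With this number of libraries no ratio could pass a threshold of 0.05. The difference in MSH6 to MSH3 was -0.81 without replicate 1 and -0.21 without replicate 3 at 24 h, and that in PMS2 to PMS1 was -0.19 and -0.58 without the same libraries.

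PMS2 changed in make-up as well as in level, and 1 of its 6 tested transcripts fell at 24 h, where 15.3% of all transcripts tested were lower. A form of 2855 bases, which matches the reference transcript PMS2-201 (ENST00000265849, protein coding), stood at 6.42, 3.84 and 5.69 FPKM at 0 h and at 0, 0.668 and 0.575 FPKM at 24 h. At 1 h it was at 3.25, 3.95 and 4.18 FPKM and at 2 h at 2.85, 4.44 and 3.48 FPKM. The 24 h values lay far below all earlier ones. Its log2 fold change at 24 h was -2.74 (SE 0.32, adjusted p = 0.00015 over 62162 transcripts). Relative to the other PMS2 transcripts its log2 ratio changed by -2.58 (SE 0.38, adjusted p = 0.0029), where 5.40% of the transcripts tested for usage were lower.

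The other main forms of PMS2 were 5 transcripts of 5177 to 5371 bases that share another start-site group. Together they held 4.59, 5.65 and 5.99 FPKM at 0 h and 4.23, 5.10 and 5.56 FPKM at 24 h, so that these libraries overlapped. In between they ranged from 4.93 to 6.12 FPKM. Their share of PMS2 was 43.0% ± 4.71 (SD, n = 3) at 0 h and 82.3% ± 19.9 at 24 h. The share of the 2855-base form was 42.6% ± 11.7 at 0 h and 5.91% ± 5.76 at 24 h. These long and short groups are given as a description, since they were set apart after the values had been seen.

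The 5371-base form has the same introns as the 2855-base form and differs from it only at the outer ends. The 5371-base form held 1.45, 0.742 and 3.02 FPKM at 0 h and 2.79, 0.740 and 4.20 FPKM at 24 h, with a log2 fold change of 0.39 (adjusted p = 0.62). The 5275-base form, a splice variant, held 2.42, 1.60 and 1.50 FPKM at 0 h and 1.44, 3.90 and 1.16 FPKM at 24 h, with a log2 fold change of 0.07 (adjusted p = 0.92). Both overlapped between the time points, and both changed sign when a replicate was left out. The 5201-base form, at 0.253 to 0.753 FPKM at 0 h and 0 to 0.202 FPKM at 24 h, did not overlap, but it did not pass the test (log2 fold change -0.73, adjusted p = 0.22). A form of 2271 bases, matching ENST00000441476, was at 0.772, 2.96 and 0.843 FPKM at 0 h but at 0, 0 and 2.84 FPKM at 24 h. Its log2 fold change was -0.94 (adjusted p = 0.34). The value was -1.85 without replicate 3 at 24 h (adjusted p = 0.021) and -0.47 without replicate 2 at 0 h (adjusted p = 0.69).

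**Figure D2:**
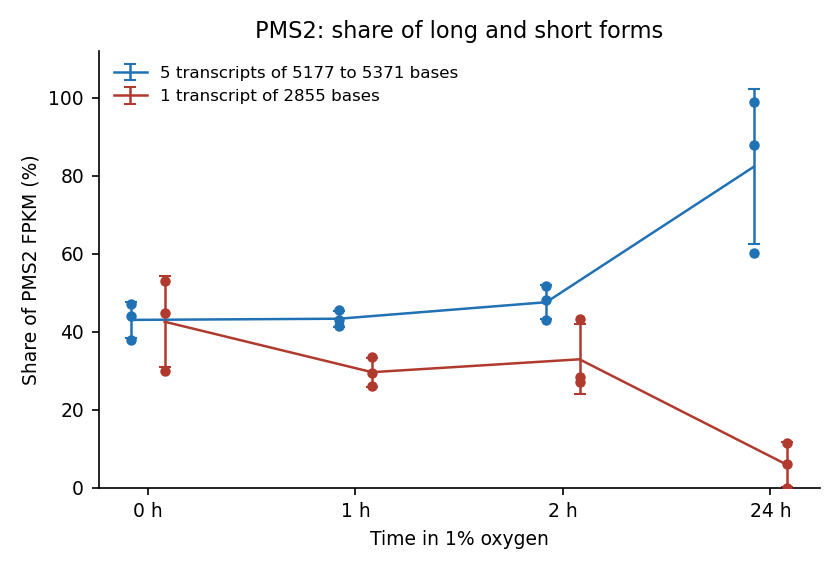
Share of PMS2 FPKM (%) held by the 2855-base form and by the 5 forms of 5177 to 5371 bases at each time point, evenly spaced. Points are libraries, lines join means and bars are the SD of 3 libraries; the groups of points overlap at 0 h and are apart at 24 h, at 0 to 11.5% and 60.2 to 98.8%.

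PMS2 has near-identical copies, between which short reads can be split, so its values carry that uncertainty. PMS2CL, a pseudogene copy of its later exons, stood at 7.16 ± 0.140 FPKM (SD, n = 3) at 0 h and 8.87 ± 0.649 FPKM at 24 h, and it rose (log2 fold change 0.29, adjusted p = 0.037). The summed level of 8 PMS2P pseudogenes was 21.4 ± 0.149 FPKM at 0 h and 16.1 ± 1.04 FPKM at 24 h. Of the 6 that could be tested, 2 were lower, PMS2P10 (log2 fold change -0.87, adjusted p = 0.0069) and PMS2P5 (-0.76, adjusted p = 0.0026), 0 were higher and 4 did not pass. This share is near the 30.3% of all genes that were lower. RSPH10B, which shares the PMS2 locus in the merged models, was at most 0.133 FPKM. The part of these copies in the change of PMS2 was not tested. FPKM divides fragments by transcript length, so a sum over transcripts gives a fragment on a short form more weight than one on a long form. With FPKM multiplied by transcript length before summing, the log2 fold change of PMS2 was -0.69 (adjusted p = 0.0014), against -0.97 above.

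Across the members, 23 transcripts passed the filter on low values, and 6 of these were lower at 24 h and 0 higher. Among all transcripts tested, 15.3% were lower and 11.3% higher. The 6 were 4 of MSH6, 1 of PMS1 and 1 of PMS2. By mean FPKM, the most abundant transcript stayed the same at all 4 time points in MSH6, PMS1, MLH3 and MSH3, and in PMS2 it was the 2855-base form up to 2 h and the 5371-base form at 24 h. Single libraries decided this at 24 h in PMS2, where the 5275-base form led without replicate 1 or 3, and in MLH3, where the 5233-base form led without replicate 2.

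Of the 6 MSH6 transcripts tested, 4 fell. The most abundant by FPKM was a 548-base fragment matching MSH6-202, at 21.4, 22.2 and 22.3 FPKM at 0 h and 9.95, 10.1 and 11.9 FPKM at 24 h, with a log2 fold change of -1.01 (adjusted p = 0.00019). Its share of MSH6 was 33.4% ± 1.11 (SD, n = 3) at 0 h and 34.0% ± 2.13 at 24 h. The 4158-base transcript MSH6-204, annotated as a target of nonsense-mediated decay (NMD), went from 12.3, 16.5 and 17.4 FPKM to 5.02, 5.76 and 6.67 FPKM, a log2 fold change of -1.32 (adjusted p = 0.00023). In both, every 24 h library was below every 0 h library, an arrangement whose share among all transcripts tested was not counted.

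The 3829-base coding transcript MSH6-209 stood at 9.75, 13.6 and 11.7 FPKM at 0 h and at 7.33, 4.66 and 6.97 FPKM at 24 h (log2 fold change -0.85, adjusted p = 0.0072). The 846-base MSH6-207, also annotated for NMD, had a log2 fold change of -1.09 (adjusted p = 0.00028). A 4055-base transcript (ENST00000538136), which had no type in the annotation used, had one of -0.68 (adjusted p = 0.073) and passed without replicate 2 at 0 h (adjusted p = 0.0082). The 7476-base coding transcript MSH6-201 was low, at 0.394 to 0.412 FPKM at 0 h and 0.0473 to 0.267 FPKM at 24 h, and did not pass (log2 fold change -0.45, adjusted p = 0.18). The 4 that fell held coding and NMD types.

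**Figure D3:**
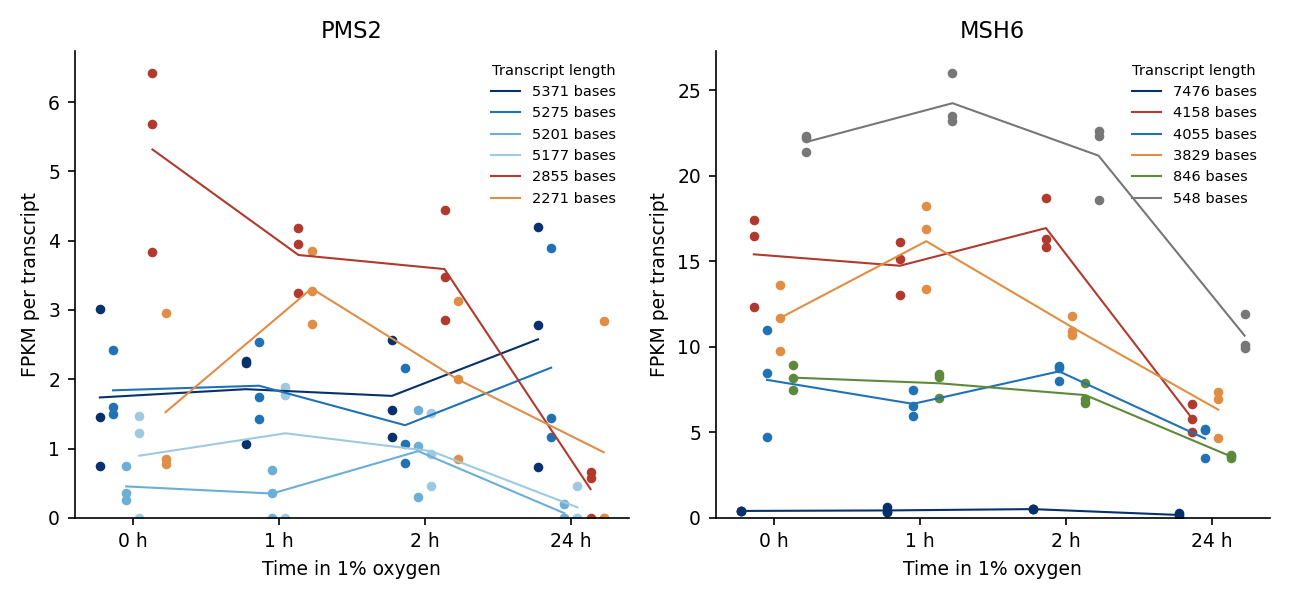
FPKM of each tested transcript of PMS2 (left) and MSH6 (right) by time point, evenly spaced, labelled by transcript length. Points are libraries and lines join the means of 3 libraries; in PMS2 the 2855-base form fell from a mean of 5.31 to 0.414 FPKM while the 5371-base and 5275-base forms overlapped between 0 h and 24 h, and in MSH6 the 5 more abundant transcripts were all lower on average at 24 h.

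In PMS1 the main transcript was PMS1-213 (3225 bases, coding), with 55.9% ± 4.69 of the gene's FPKM at 0 h and 53.7% ± 4.85 at 24 h. It held 9.96, 8.97 and 8.52 FPKM at 0 h and 5.19, 4.97 and 6.54 FPKM at 24 h (log2 fold change -0.68, adjusted p = 0.008). PMS1-206, PMS1-204 and PMS1-215 had log2 fold changes of -0.66, -0.45 and -0.47, and none passed the test. On leaving out single libraries these ranged from -0.95 to -0.35, from -0.62 to -0.17 and from -0.63 to -0.33. The only MSH3 transcript tested, MSH3-201 (4092 bases, coding), was at 0.654, 0.486 and 0.716 FPKM at 0 h and 0.309, 0.753 and 0.656 FPKM at 24 h, which overlapped. Its log2 fold change was -0.08 (adjusted p = 0.84), and it turned to 0.11 without replicate 1 at 24 h.

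By mean FPKM MLH3 was led by a 4491-base transcript (ENST00000556740), at 1.36, 1.64 and 2.12 FPKM at 0 h and 0.813, 2.86 and 2.83 FPKM at 24 h, with a log2 fold change of 0.16 (adjusted p = 0.78). A 5233-base transcript (ENST00000238662) had one of 0.49 (adjusted p = 0.27), and the 700-base MLH3-207, a retained-intron form, one of 0.37 (adjusted p = 0.55). On leaving out single libraries they ranged from 0.33 to 0.76 and from 0.13 to 0.57. A 6736-base variant of MLH3-201 was at 0.608, 0.456 and 0.546 FPKM at 0 h and at 0, 0.292 and 0.215 FPKM at 24 h, with a log2 fold change of -0.66 (adjusted p = 0.16). Of these 4, none passed the test of level.

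Isoform usage, the level of each transcript against the rest of its gene, was tested in the 4 members with more than one transcript past the filter. Of the 13 transcripts of MSH3, 1 passed it, so its usage could not be tested. At 24 h it changed in PMS2 (adjusted p = 0.0041) and MLH3 (adjusted p = 0.033) by limma with a Simes p per gene, against 27.7% of the 10680 genes tested. It did not pass in MSH6 (adjusted p = 0.22) or PMS1 (adjusted p = 0.90). The call in PMS2 held in every alternative run, with adjusted p of 0.0035 to 0.021. The call in MLH3 rested on the 6736-base variant (log2 ratio change -1.10, adjusted p = 0.026), which passed the filter only through 3 libraries of 0 h and 1 h, where it was high, so that this call is given as a description. Without replicate 2 at 0 h or any single library of 24 h the adjusted p was 0.068 to 0.093. Without replicate 1 or 3 at 0 h or replicate 1 at 1 h the variant dropped out of the test, and the other MLH3 transcripts gave an adjusted p of 0.79 to 1. At 1 h and 2 h no member passed, with 0.0187% and 0.00936% of genes called.

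As the study concerns splicing and noncoding isoforms in hypoxia, the noncoding share of each member was measured among transcripts with an annotated type. Splice variants that match no reference transcript took the type of the nearest one. At 24 h all coding FPKM of MLH3 came from such variants. In MSH6 the noncoding share was 40.8% ± 2.44 (SD, n = 3) at 0 h and 35.6% ± 3.14 at 24 h, mostly from NMD types. The log2 ratio of noncoding to coding FPKM in MSH6 changed by -0.30 (adjusted p = 0.39). In MLH3 the share was 53.4% ± 2.29 at 0 h and 71.8% ± 9.29 at 24 h (log2 ratio change 0.82, adjusted p = 0.18), and the transcripts with no annotated type held 55.6% ± 8.19 of MLH3 at 0 h. The MLH3 libraries did not overlap, at 50.8 to 54.9% at 0 h and 62.5 to 81.0% at 24 h. How many of all genes were apart in this way was not counted. At 1 h and 2 h the MLH3 share ranged from 25.3 to 77.3%.

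In PMS1 and PMS2 the ratio passed the test, with log2 changes of 1.00 (adjusted p = 0.025) and 0.97 (adjusted p = 0.017), where 8.65% of 9278 genes were higher and 5.20% lower. Their noncoding FPKM was at most 0.282 in any library at 0 h or 24 h, below the 0.5 added to each value, while the coding FPKM of PMS1 was 15.4 to 16.9 at 0 h and 9.21 to 11.3 at 24 h. With 0.1 added in place of 0.5, the log2 changes were 1.63 in PMS1 (adjusted p = 0.15) and 1.04 in PMS2 (adjusted p = 0.22), which did not pass. The PMS1 call was also lost without any single library of 0 h and without replicate 2 or 3 at 24 h (0.88 to 1.06, adjusted p of 0.05 to 0.086), and the PMS2 call without replicate 2 at 0 h (0.90, adjusted p = 0.056). The noncoding share of PMS1 was 0 to 0.544% at 0 h and 0 to 2.73% at 24 h, which overlapped. In PMS2 it was 0 to 1.66% at 0 h and 0.698 to 4.20% at 24 h, which also overlapped. MSH3 had noncoding FPKM of 0.0537 to 0.301 at 0 h and was listed at 0 at 24 h, with a log2 ratio change of -0.07 (adjusted p = 0.91), or -0.74 with 0.1 added (adjusted p = 0.54).

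The clamp, the excision and resynthesis enzymes and accessory factors act with the MutS and MutL dimers. Of the sliding clamp and its loader, 5 of 6 were lower and 0 higher at 24 h, against 30.3% lower and 25.0% higher among all genes tested (median log2 fold change -1.37 in the list). PCNA, the clamp that carries the polymerase and contacts MutS and MutL dimers, fell from 323.6 ± 20.6 to 118.1 ± 21.0 FPKM (log2 fold change -1.46, adjusted p = 1.5e-06). The loader subunits RFC3, RFC2 and RFC5 had log2 fold changes of -1.74, -1.48 and -1.28, each with an adjusted p of at most 3.8e-06. RFC1, the large loader subunit, was at 41.4 ± 0.846 FPKM at 0 h and 39.4 ± 5.26 FPKM at 24 h (log2 fold change -0.08, adjusted p = 0.55).

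Of the genes for excision, resynthesis and ligation, 8 of 9 were lower and 1 was higher (median -0.85), where 30.3% of all genes were lower and 25.0% higher. EXO1, the exonuclease that removes the strand with the error, fell from 25.9 ± 0.746 to 6.51 ± 0.248 FPKM, a log2 fold change of -1.91 (adjusted p = 2.7e-07). POLD3, an accessory subunit of DNA polymerase delta, had a log2 fold change of -1.42 (adjusted p = 3.4e-06), and RPA2, a subunit of the single-strand binding complex, one of -1.29 (adjusted p = 4.2e-07). POLD4, the smallest subunit of the same polymerase, rose from 7.79 ± 2.15 to 32.3 ± 4.46 FPKM (log2 fold change 2.00, adjusted p = 9.5e-05). All its partners in the list, POLD1, POLD2 and POLD3, were lower.

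Among other MutS relatives and accessory factors, 4 of 6 tested were lower and 0 higher (median -0.69), beside 30.3% of all genes lower. MCM8 and MCM9, which form a helicase linked to mismatch repair, had log2 fold changes of -1.06 (adjusted p = 1.7e-05) and -0.66 (adjusted p = 0.0022). HMGB1, a chromatin protein, had one of -0.86 (adjusted p = 7.9e-05), and FAN1, a nuclease that binds MutL proteins, one of -0.73 (adjusted p = 0.0026). MSH5, a meiotic MutS homologue, was at 7.93 ± 0.956 and 10.7 ± 2.45 FPKM (log2 fold change 0.39, adjusted p = 0.11), and its meiotic partner MSH4 was too low to test.

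Of 10 genes of replication and cell division, 8 were lower at 24 h and 0 higher, with 30.3% of all genes tested lower. The median was -1.24 on the log2 scale (lowest -1.77, highest 0.13). All 6 MCM2 to MCM7 genes were among the 8, and MKI67 and TOP2A did not pass the test (0.13 and 0.09). Their part in the results of the members was not tested. Of 6 genes known to be induced by hypoxia, 6 were higher at 24 h, by log2 fold changes of 1.90 to 5.45, with 25.0% of all genes higher. At 1 h and 2 h no gene of these lists passed except 2 of the 6 hypoxia genes at 2 h.

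**Figure D4:**
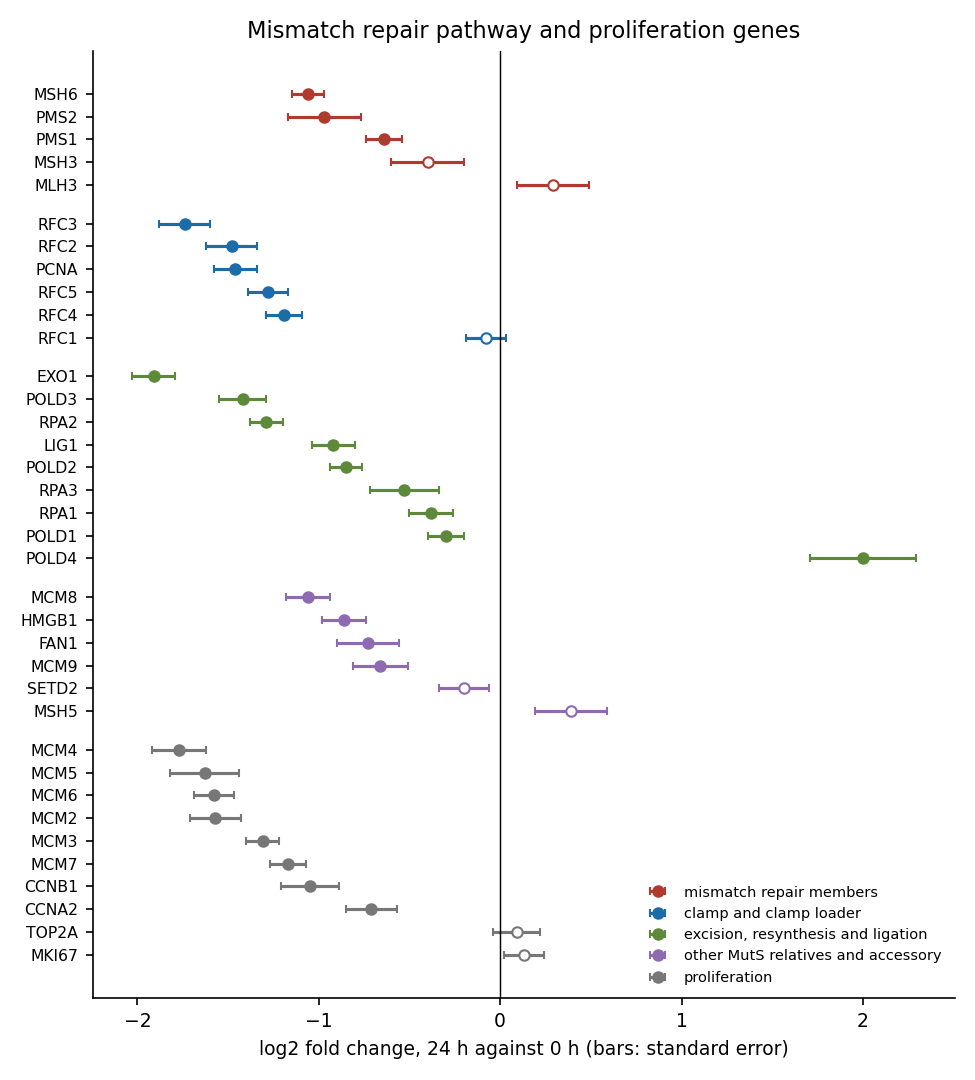
Log2 fold change at 24 h against 0 h of the mismatch repair genes, other pathway genes and proliferation genes. Points are limma estimates from 3 libraries a group with their standard errors, filled where the adjusted p was under 0.05; MSH6, PMS2 and PMS1 lie left of 0 with most of the clamp, excision and MCM genes, and POLD4 is the only filled point right of 0.

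The genes with the course most like each member were found by the root mean square difference of log2(FPKM + 0.5), each gene set to its own 0 h mean, over the 12 libraries and among 14360 genes. For MSH6 they were PARL and HNRNPF (both 0.078), and for PMS1 they were ARMC1 (0.060) and MGST1 (0.068). For PMS2 they were HNRNPD (0.131) and TTC27 (0.135), for MSH3 TADA1 (0.107) and NANP (0.115), and for MLH3 RP11-467L13.5 (0.152) and CLIP4 (0.162). The median over all genes compared was 0.47 to 0.59, depending on the member. No member was among the nearest genes of another.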

How the data were processed

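Poly(A) libraries of HCT116 cells at 0, 1, 2 and 24 h in 1% oxygen, 3 per time point, were grouped by their labels. The deposited values were FPKM per transcript, which the authors estimated with Cufflinks on hg19, on models assembled per sample and merged with Ensembl. The read processing of the authors (CASAVA 1.8.2 is named in the submitters' processing notes) and their tests with edgeR and Cuffdiff were not repeated, and no rescaling between libraries was applied.

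FPKM of the transcripts with a gene name and class code = or j was summed per gene name. Genes, transcripts, isoform usage and noncoding to coding ratios were tested with limma 3.58.1 (lmFit and eBayes, two-sided) in R 4.3.3 (data.table package, 1.17.8), on log2 values with 0.5 added, over all 12 libraries. Genes and transcripts above 0.5 FPKM in at least 3 libraries entered. For isoform usage a transcript also needed another such transcript in its gene. For noncoding to coding ratios the limit applied to the sum of both kinds, with some noncoding FPKM in at least 3 libraries. Benjamini-Hochberg adjustment ran over all features of a test. Of the transcripts, 85.3% were given a type, that of their nearest reference transcript, looked up by Ensembl identifier in GENCODE release 44 on GRCh37. Splice variants that match no reference transcript therefore carry the type of another transcript. Every type other than protein coding counted as noncoding. Exact permutation tests compared ratios. Python 3.11.15, numpy 2.4.6, pandas 2.3.3 and matplotlib 3.10.9 were used. The gene, isoform usage and noncoding ratio tests were tried on simulated data.

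The members and the gene lists were chosen with earlier results of these data known. Named were the 5 members, their transcripts that passed the filter with at least 10% of the gene's FPKM at any time point, from each pathway list up to 4 genes with the largest change and any that moved against the rest, and the 2 genes nearest to each member. Other genes and transcripts named in the text were chosen after their values were seen. Alternatives covered scaling, the added value, filters, class codes, the replicate block and leaving out each library. Summing FPKM times length was added after seeing the data.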

Additional observations from a re-analysis of the deposited data

How the results depend on the processing

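MSH6, PMS2 and PMS1 stayed lower at 24 h at an adjusted p under 0.05 in every alternative run, with log2 fold changes of -1.89 to -1.02, -1.66 to -0.69 and -1.40 to -0.56. TPM over all transcripts moved the median of all genes to -0.78, since transcripts under 300 bases held 57.0 to 87.7% of a library's summed FPKM. It changed the split of genes called at a fold above 2 from 1586 lower and 1462 higher to 3995 and 209. With it 3 members were called at that fold in place of 1, MSH3 passed (-0.66, adjusted p = 0.038) and MLH3 turned to -0.45. TPM over transcripts of at least 300 bases, which moved the median to -0.13, and adding 0.1 in place of 0.5 each gave 2 members at that fold, and leaving out single libraries 1 to 2. The pathway lists kept their counts under the scalings tried, except that SETD2 also passed as lower with TPM over all transcripts. Changed isoform usage was called in 1 member in place of 2 by diffSplice (MLH3, adjusted p = 0.14), with 0.1 added (0.15), with transcripts above 1 FPKM (0.97) and with class = alone (0.97), of which the last pair leave its 6736-base variant out, and MSH6 passed with 1 added (0.026). Leaving out single libraries gave 0.037 to 1 for MLH3, 1 to 2 members and 1665 to 2727 genes, against 2960. For noncoding to coding ratios, 1285 genes were called, 445 with 0.1 added which called 0 members in place of 2 (PMS1 at 1.63 and PMS2 at 1.04). Among transcripts above 0.5 FPKM 775 genes and 0 members were called, but PMS1 and PMS2 have no noncoding transcript above that limit and were not tested there. Without single libraries these were 686 to 1181 genes and 0 to 2 members, with ratio changes of 0.88 to 1.14 in PMS1, 0.89 to 1.11 in PMS2 and -0.30 to 0.12 in MSH3. Without single libraries the log2 fold change ranged from -0.36 to 0.34 and from -0.02 to 0.95 for the 5275-base and 5371-base PMS2 forms, from -0.07 to 0.61 for the 4491-base MLH3 form and from -0.20 to 0.11 for MSH3-201. The 24 h against 2 h difference of MLH3 passed without replicate 1 at 24 h (0.61, adjusted p = 0.025) or replicate 2 at 2 h (0.65, adjusted p = 0.016). Beyond what is named here, the cause of these differences was not tested. Same-numbered libraries correlated by 0.154 on average (-0.083 to 0.428), with 10 of 18 pairs over 0.1. For 2 h, all 3 pairs with 0 h and all 3 with 1 h were over 0.1, but only 1 of 3 of the pairs of 24 h with 0 h was, so that the numbers were not taken as pairs at 24 h. With the replicate number as a block 3106 genes were called at a fold above 2 against 3048 without it, 3040 of them in both. The block changed no call of a member at 24 h against 0 h. With 3 libraries a time point and no counts, precision rests on replicate spread alone, and low transcripts are the least certain.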
